A study of Homo sapiens with 6 samples.

Results

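Chromosome 19 carries the largest concentration of zinc finger genes in the human genome, and the measurements below concern its protein-coding ZNF genes in K562 cells with and without an inhibitor of EZH2. The genes were taken by name and position alone: every protein-coding gene of chromosome 19 in the GENCODE annotation whose symbol is ZNF followed by a digit. This gave 248 genes of the 60671 in the count files, and 1 further gene that meets the name rule is not reported here. By the boundary of 26 Mb, 85 of the genes lay on the p arm and 163 on the q arm. The rule uses no measured value. The ZNF genes of the other chromosomes, 266 in number, and the other 1221 protein-coding genes of chromosome 19 serve as the nearest comparisons.

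The cells were 1 clone of K562, a human chronic myeloid leukemia line, carrying a doxycycline-inducible fusion of a GpC methyltransferase (M.CviPI), a nuclear localization signal and a Flag tag to Lamin B1. Separate cultures in triplicate received 0.1% DMSO or 1 µM GSK343, an inhibitor of the methyltransferase EZH2 (EZH2i), for 72 h, and all 6 received 1 µg/mL doxycycline for the last 24 h, so that the DMSO controls expressed the fusion too. Transcripts were read by three-prime mRNA sequencing (QuantSeq), in which each transcript gives reads near its polyadenylated end whatever its length, and levels are given here as CPM, read counts divided by the library total on genes after TMM scaling. The reads on genes numbered 6327544 to 8987768 per library. EZH2i replicate 3 stood apart, with 12.71% of its listed reads on no gene feature, compared with 7.43% to 8.51% in the other 5 libraries. No pair of replicates was a copy, since their counts differed by 4.56 to 12.7 times the sampling variance. The pairs that include EZH2i replicate 1 were at 10.8 and 12.7, EZH2i replicates 2 and 3 at 4.56, and the DMSO pairs at 6.42 to 8.46.

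C2H2 zinc finger proteins bind DNA through tandem fingers, each holding a zinc ion between a pair of cysteines and a pair of histidines. Most of those on chromosome 19 begin with a KRAB domain, which recruits the corepressor TRIM28 (KAP1), and TRIM28 in turn brings the H3K9 methyltransferase SETDB1 and HP1 proteins. The genes arose by tandem duplication, stand in clusters, and many of their products silence transposable elements. EZH2 is the catalytic subunit of Polycomb repressive complex 2, which places a different silencing mark, methylation of H3K27.

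In the canonical protein of each gene, 246 of the 248 held at least 1 finger by the pattern of Cys, 2 residues, Cys, 12 residues, His, 3 to 5 residues and His, compared with 4.04% of all 20046 annotated proteins. The median was 12 fingers. ZNF208 had the most, with 36, and the readthrough genes ZNF625-ZNF20 and ZNF816-ZNF321P had 0. A KRAB A core motif was found in 195 of the 248, compared with 1.65% of all proteins. It was searched as Leu, then Tyr, His or Phe, 2 residues, Val, Met, 1 residue and Glu. A protein without a match may still hold a KRAB domain of another sequence. ZNF587 and ZNF324B matched, and ZNF587B and ZNF324 did not. The genes were grouped where neighbours lay within 0.5 Mb, and 10 clusters, numbered along the chromosome from the p arm end, held at least 5 genes.

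Many of these genes were not detected, as was so for protein-coding genes as a whole, and the number varied from cluster to cluster. No read fell on 52 of the 248 genes in any library, 91 had at most 3 reads in every library, and 124 had enough reads to be tested. Of all 19911 protein-coding genes, 5016 had no read, 7628 had at most 3 reads in every library, and 10651 (53.5%) were tested. Of the 266 ZNF genes on other chromosomes, 34 had no read and 50 had at most 3 in every library. On the other chromosomes 195 of 266 ZNF genes (73.3%) were tested, as were 674 of 1221 other coding genes of chromosome 19 (55.2%). The shares on the p arm (40 of 85, 47.1%) and the q arm (84 of 163, 51.5%) were close. Of the genes with a match to the KRAB core motif, 88 of 195 (45.1%) were tested, compared with 36 of 53 without a match (67.9%). These shares are descriptions without a test.

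**Figure D1:**
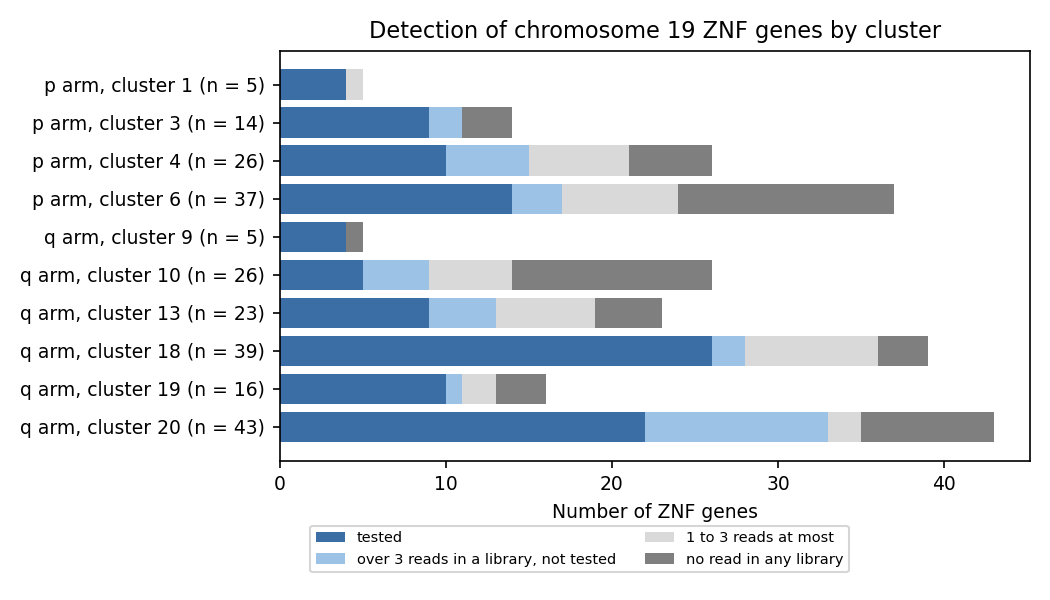
Number of chromosome 19 ZNF genes in each of the 10 clusters of at least 5 genes, split by detection in the 6 libraries; bars count genes. In cluster 10 only 5 of 26 genes were tested and in cluster 6 only 14 of 37, while 26 of 39 were tested in cluster 18.

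Cluster 10 (36.18 to 37.82 Mb on the q arm) had the smallest tested share of the 10 clusters, 5 of 26 genes (19.2%), and 12 had no read at all. Cluster 6 (19.67 to 24.13 Mb, next to the centromere on the p arm) had 14 tested genes of 37, and 13 without a read. Cluster 18 (51.57 to 53.5 Mb) had 26 of 39 tested. In HTSeq counts a read that maps to several places, or that lies on overlapping genes, is not assigned, and such reads were 21.36% to 22.33% and 2.246% to 2.48% of the listed reads. Near-identical paralogs and overlapping genes can lose reads in this way. Of the 52 genes without a read, 14 overlap a coding gene on the same strand and 3 are readthrough genes. Of the 124 tested genes, 30 overlap a coding gene on the same strand. How much this lowered individual counts was not tested.

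The tested genes were low in level, and their summed level was uneven. Their mean in DMSO ran from 1.31 to 346 CPM with a median of 7.18. The median was 23.8 over all tested genes and 11.9 over the tested ZNF genes of other chromosomes. ZNF428 on the q arm, with 1 finger and no KRAB core, alone held 16.6% of the summed CPM of the 248 genes, the 10 highest held 43.0% and the 20 highest 58.2%. Across the 124 tested genes, the number of fingers and the level in DMSO had a Spearman correlation of -0.23, as a description over genes that share libraries and paralogous sequence. The tested median was 12.7 CPM on the p arm and 6.42 on the q arm.

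ZNF431, which had the highest level on the p arm, was at 83.3, 92.8 and 80.5 CPM in DMSO and 77.5, 76.4 and 77.5 in EZH2i. Its neighbour ZNF714 stood at 73.6, 77.2 and 80.5 CPM in DMSO and 64.5, 68.0 and 66.9 in EZH2i. In both genes every EZH2i library lay below every DMSO library, and neither passed the test (log2 fold change -0.15, adjusted p = 0.464, and -0.21, adjusted p = 0.267; edgeR's quasi-likelihood test). The next p arm genes by level were ZNF791, ZNF121 and ZNF429, at means in DMSO of 60.4 ± 7.51, 57.8 ± 4.27 and 54.5 ± 3.52 CPM (SD, n = 3), values whose spreads overlap. Their groups overlapped too, with log2 fold changes of 0.18, -0.06 and -0.18. These rested on single libraries in part: ZNF431 was at -0.08 without DMSO replicate 2, ZNF429 at -0.09 without EZH2i replicate 1, and ZNF791 at 0.11 without DMSO replicate 1 and 0.28 without DMSO replicate 3.

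ZNF428, the highest of the q arm, was at 357, 320.1 and 361 CPM in DMSO and 345, 348 and 344 in EZH2i. The EZH2i libraries lay within the range of the DMSO libraries, and the log2 fold change was 0.00 with a 95% interval of -0.20 to 0.21. The gene overlaps SRRM5 on the opposite strand. ZNF146, a protein of fingers without a KRAB domain, stood at 68.2, 67.6 and 56.9 CPM in DMSO and 40.0, 48.1 and 59.4 in EZH2i. One EZH2i library lay above the lowest DMSO library, and the log2 fold change of -0.38 did not pass (adjusted p = 0.126, edgeR). ZNF581, ZNF480 and ZNF175 followed at 61.6 ± 5.0, 41.4 ± 4.74 and 39.1 ± 0.434 CPM in DMSO, with log2 fold changes of -0.23, -0.03 and -0.24 and adjusted p-values of 0.276, 0.938 and 0.308 (edgeR). In ZNF581 and ZNF175 every EZH2i library lay below every DMSO library, and in ZNF480 the groups overlapped. ZNF175 was at -0.14 without EZH2i replicate 1, and ZNF146 at -0.25. ZNF146 overlaps ZNF565 on the opposite strand, and ZNF581 overlaps ZNF580 and CCDC106 on its own strand.

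The comparison of EZH2i with DMSO asked which genes respond when H3K27 methylation is inhibited. Of the 124 tested ZNF genes of chromosome 19, 0 were called higher and 1, ZNF708, was called lower (0.806%), at an adjusted p under 0.05 over all 12364 tested genes (edgeR, quasi-likelihood, Benjamini-Hochberg). Over all tested genes 4.26% were called, 3.34% higher and 0.922% lower. The ZNF genes on other chromosomes gave 2 higher and 1 lower of 195 (1.54%), and the other coding genes of chromosome 19 gave 20 higher and 6 lower of 674 (3.86%). At an unadjusted p under 0.05, 2 of the 124 were higher and 8 lower, against 10.9% and 8.21% of all tested genes. DESeq2 on the same counts also called 0 higher and 1 lower, ZNF708, with 3.02% of all genes called (2.03% higher and 0.993% lower).

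The precision of the measurement was limited for these genes. Their median standard error on the log2 scale was 0.22, compared with 0.15 over all tested genes and 0.19 over ZNF genes of other chromosomes. The 95% interval lay wholly within a 1.5-fold change either way for 46 of the 124 (37.1%). This share was 56.9% of all tested genes and 44.1% of the tested ZNF genes of other chromosomes. For the other 78 of the 124 the interval reached past that size on at least 1 side.

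**Figure D2:**
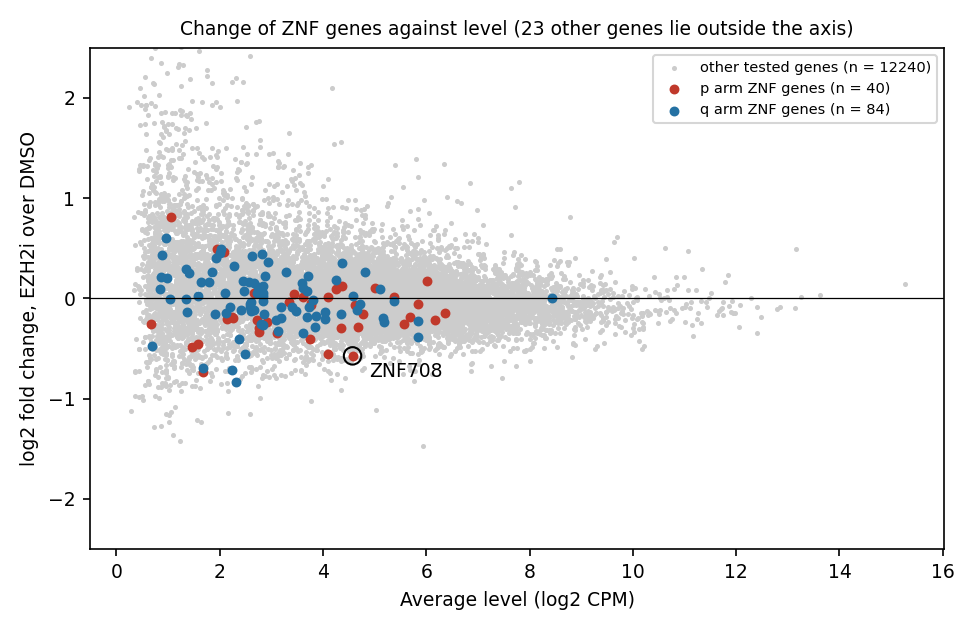
Each point is a tested gene; the x axis is the average level in log2 CPM and the y axis the log2 fold change of EZH2i over DMSO by edgeR, with p arm ZNF genes in red, q arm ZNF genes in blue and all other genes in grey. The ZNF genes lie between -0.84 and 0.82, and ZNF708 is ringed as the 1 called gene.

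Of the ZNF genes, 93 never passed 3 reads in DMSO, and 0 of these had over 3 reads in each EZH2i library. Over the whole table, which holds 34445 genes with no read, it was 115 of 44920 (0.256%). It was 90 of 8166 among all coding genes, 2 of 58 among ZNF genes of other chromosomes, and 8 of 448 among other coding genes of chromosome 19. Over 3 reads in any EZH2i library were seen in 1243 of the 44920, 538 of the 8166, 8 of the 58 and 37 of the 448. They were seen in 2 of the 93, ZNF528 (1, 3 and 3 reads in DMSO, 4, 4 and 3 in EZH2i) and ZNF814 (0, 2 and 0 reads in DMSO, 0, 3 and 4 in EZH2i). Both lie near the floor of 3 reads, which corresponds to 0.34 to 0.468 CPM per library.

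ZNF708 (ENSG00000182141, GRCh38 chromosome 19, 21291160 to 21329425, minus strand), a KRAB gene with 14 fingers, was at 23.6, 31.1 and 29.1 CPM in DMSO and 19.03, 19.1 and 18.3 in EZH2i. All EZH2i libraries lay below all DMSO libraries, at means of 27.9 ± 3.92 and 18.8 ± 0.465 CPM (SD, n = 3). The log2 fold change was -0.57 (SE 0.14, 95% interval -0.88 to -0.27), with an adjusted p of 0.0326 by edgeR. No annotated exon of another gene overlaps it. The call was lost without DMSO replicate 2 (adjusted p = 0.16), DMSO replicate 3 (0.103), EZH2i replicate 2 (0.0677) or EZH2i replicate 3 (0.0779), and the log2 fold change then lay between -0.59 and -0.49.

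ZNF708 lies in cluster 6, and its neighbours had fold changes of the same sign. Of the 14 tested genes of that cluster, 13 had a log2 fold change below 0 and 1 above, with a median of -0.27, compared with -0.0002 over all tested genes. Every EZH2i library lay below every DMSO library for 6 of the 14: ZNF708, ZNF431, ZNF714, ZNF100, ZNF681 and ZNF253. Of all tested genes, 11.2% lay below in this sense and 13.3% above. The cluster was singled out after its values were seen and has no test. Its tested genes had a median level of 23.6 CPM, and 31 of its 37 genes carry a KRAB core.

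ZNF100 stood at 51.2, 49.7 and 52.2 CPM in DMSO and 37.7, 46.4 and 44.2 in EZH2i, without overlap (log2 fold change -0.25, adjusted p = 0.252, edgeR). ZNF681 stood at 17.8, 14.8 and 12.5 CPM in DMSO and 10.7, 11.6 and 11.4 in EZH2i (-0.41, adjusted p = 0.215, edgeR). ZNF493 was the only tested gene of the cluster with a fold change above 0: its levels were 12.3, 12.3 and 11.2 CPM in DMSO and 8.77, 10.7 and 16.7 in EZH2i, and EZH2i replicate 3 alone lay above the DMSO libraries. Summed over all 37 genes, the level was 426, 421 and 418 CPM in DMSO and 348, 358 and 371 in EZH2i. The sums of the groups did not overlap. The cluster's median ran from -0.35 to -0.21 over the alternatives tried, each left-out library included, and at most 2 of its genes lay above 0 in any of them.

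**Figure D3:**
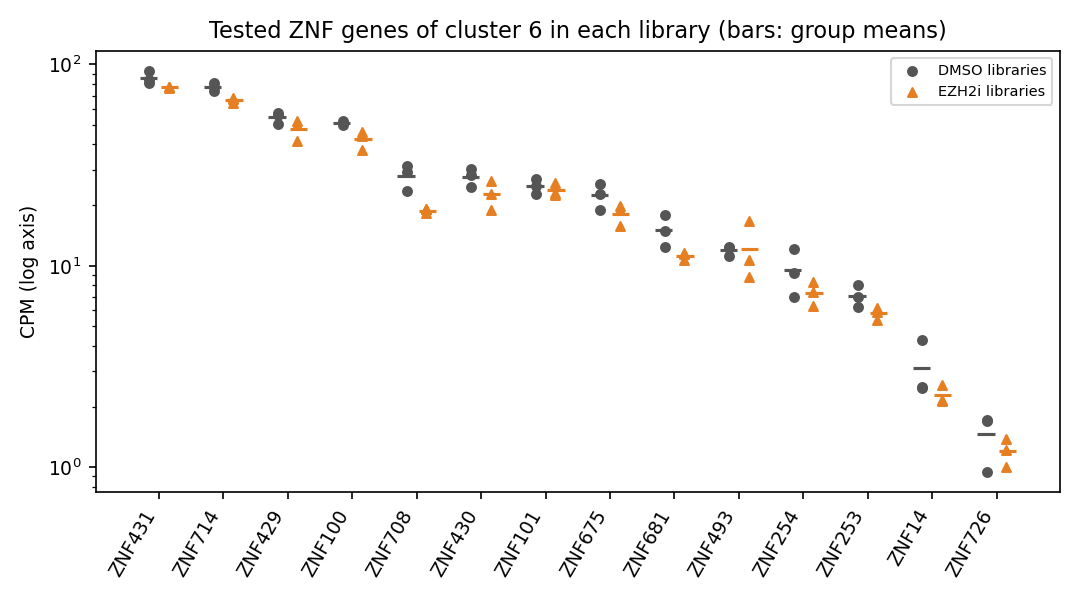
CPM on a log axis of the 14 tested genes of cluster 6, with 1 point per library (grey circles DMSO, orange triangles EZH2i) and bars at the mean of each group of 3. ZNF708 shows the widest gap between the groups, and in ZNF493 1 EZH2i library lies above the DMSO libraries.

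The promoters of cluster 6 had the highest median identity of the 10 clusters, and 5 are printed to show what its genes with and without counted reads share, beside that of ZNF428 from cluster 13. Sequences are from RefSeq on GRCh38.p14, which had a promoter for 217 of the 248 genes, and each stretch runs 5′ to 3′ on the strand of the gene from base 250 before the RefSeq start, ending at that start or at the first base that GENCODE places in an exon of the gene. Capitals mark CCAAT and the motif CCGGAAG on either strand. ZNF708 (chr19:21329426-21329660, minus strand) is the called gene. ZNF431 (chr19:21141790-21142023, plus) and ZNF714 (chr19:21081953-21082158, plus) have the highest levels of the p arm, and ZNF429 (chr19:21505352-21505601, plus, inside the GENCODE span of the gene but in no exon of it) is a further expressed gene. ZNF91 (chr19:23395472-23395721, minus) had no read. ZNF428 (chr19:43619630-43619879, minus) has the highest level on the q arm.
ZNF708: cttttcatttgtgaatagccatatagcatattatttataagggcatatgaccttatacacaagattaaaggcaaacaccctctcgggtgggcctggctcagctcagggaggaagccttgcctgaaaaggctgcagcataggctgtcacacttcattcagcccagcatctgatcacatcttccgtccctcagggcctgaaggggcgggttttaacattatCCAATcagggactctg
ZNF431: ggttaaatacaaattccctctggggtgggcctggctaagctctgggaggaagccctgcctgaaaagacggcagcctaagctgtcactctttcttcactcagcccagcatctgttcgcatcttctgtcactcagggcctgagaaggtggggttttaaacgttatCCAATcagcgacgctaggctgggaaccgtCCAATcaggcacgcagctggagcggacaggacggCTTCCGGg
ZNF714: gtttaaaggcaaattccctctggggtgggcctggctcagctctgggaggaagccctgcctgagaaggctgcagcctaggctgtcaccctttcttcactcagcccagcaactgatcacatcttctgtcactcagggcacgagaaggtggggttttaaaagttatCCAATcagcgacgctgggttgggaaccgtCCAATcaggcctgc
ZNF429: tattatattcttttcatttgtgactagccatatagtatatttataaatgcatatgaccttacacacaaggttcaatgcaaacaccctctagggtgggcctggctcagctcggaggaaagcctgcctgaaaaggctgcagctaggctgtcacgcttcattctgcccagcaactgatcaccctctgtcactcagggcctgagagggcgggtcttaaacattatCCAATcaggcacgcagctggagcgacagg
ZNF91: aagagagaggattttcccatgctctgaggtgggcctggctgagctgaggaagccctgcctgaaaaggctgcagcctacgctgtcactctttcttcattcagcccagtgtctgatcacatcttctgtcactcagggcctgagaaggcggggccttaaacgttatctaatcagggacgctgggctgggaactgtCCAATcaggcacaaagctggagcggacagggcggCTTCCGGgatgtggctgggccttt
ZNF428: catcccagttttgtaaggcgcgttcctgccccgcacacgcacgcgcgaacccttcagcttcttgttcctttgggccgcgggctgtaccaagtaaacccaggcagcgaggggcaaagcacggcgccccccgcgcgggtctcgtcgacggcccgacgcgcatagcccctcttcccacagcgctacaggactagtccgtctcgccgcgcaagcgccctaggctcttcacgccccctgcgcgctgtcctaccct

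CCAAT, searched on both strands from 250 bases before to 50 after the start, occurred in 29 of the 29 cluster 6 promoters with a sequence, and 21 held it at least 2 times. It occurred in 35.7% of all 27305 promoters of the table, 54.4% of the chromosome 19 ZNF promoters, 82.4% of those of the p arm and 39.9% of those of the q arm. It was also found in 5 of 5 promoters of cluster 1 and 23 of 25 of cluster 4. CCGGAAG, a core bound by ETS factors, occurred in 72.4% of cluster 6 promoters, 3 of 4 in cluster 9, 67.5% in cluster 20, 65.6% in cluster 18, 44.7% of the chromosome 19 ZNF promoters and 10.7% of all. GGGCGG occurred in 68.2% of the ZNF promoters and 44.6% of all, and TATAAA in 5 of 217 and 3264 of 27305. A CCAAT box and a CCGGAAG site cannot be read from the same stretch, but GGGCGG can share bases with either, and TATAAA with CCAAT. Matches are descriptions of the sequence in this window and were chosen after the sequences were seen.

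Over the 406 pairs of cluster 6 promoters the median identity was 78.3%, compared with 46.7% to 59.5% within the other clusters described and 44.3% over 20805 pairs from different clusters. The promoters of ZNF431 and ZNF714 were 91.0% identical and those of ZNF708 and ZNF429 79.3%. ZNF91, with no counted read, was 86.3% identical to ZNF431, whose mean in DMSO was 85.5 CPM. ZNF428 matched the other 5 printed genes at 17.7% to 48.7%. The median number of CG dinucleotides was 10 in cluster 6, 20 over the chromosome 19 ZNF promoters and 14 over all promoters.

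Fold changes lay lower on the p arm than on the q arm, and cluster 6 held 13 of the 27 p arm genes below 0. The median log2 fold change of the tested genes was -0.17 on the p arm (27 of 40 below 0, 67.5%) and -0.01 on the q arm (44 of 84, 52.4%), compared with -0.05 over both, -0.03 over ZNF genes of other chromosomes and 0.03 over the other coding genes of chromosome 19. Per library, the p arm median relative to DMSO was 0.00, -0.04 and 0.03 in DMSO and -0.10, -0.17 and -0.11 in EZH2i. The EZH2i libraries lay below all DMSO libraries on the p arm and among them on the q arm (0.00, -0.07 and 0.05 in DMSO, -0.01, -0.06 and 0.03 in EZH2i). Outside cluster 6, the 26 tested p arm genes split into 12 above and 14 below 0, with a median of -0.05, a division made after the values were seen. The difference between the arms was not tested. The q arm median turned above 0 without DMSO replicate 3 (0.03) or EZH2i replicate 2 (0.04), while the p arm median stayed below 0 in every alternative tried.

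The summed level of the 248 genes was 2077, 2040.2 and 2154 CPM in DMSO and 1985, 1963 and 2015 in EZH2i, and the groups did not overlap. On the p arm it was 822, 817 and 851 CPM in DMSO and 750.0, 756 and 783 in EZH2i, without overlap. Without cluster 6 the p arm sum was 396, 396 and 433 CPM in DMSO and 402, 399 and 412 in EZH2i, with overlap. On the q arm it was 1255, 1223 and 1303 CPM in DMSO and 1235, 1207 and 1232 in EZH2i, with overlap. With library totals in place of TMM the difference of the group means for the 248 genes was -55.3 CPM instead of -103, and the groups overlapped (2104, 1978 and 2117 in DMSO, 2022.1, 1973 and 2038 in EZH2i). A change in the share of cells and a change in RNA per cell cannot be told apart in such bulk samples.

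**Figure D4:**
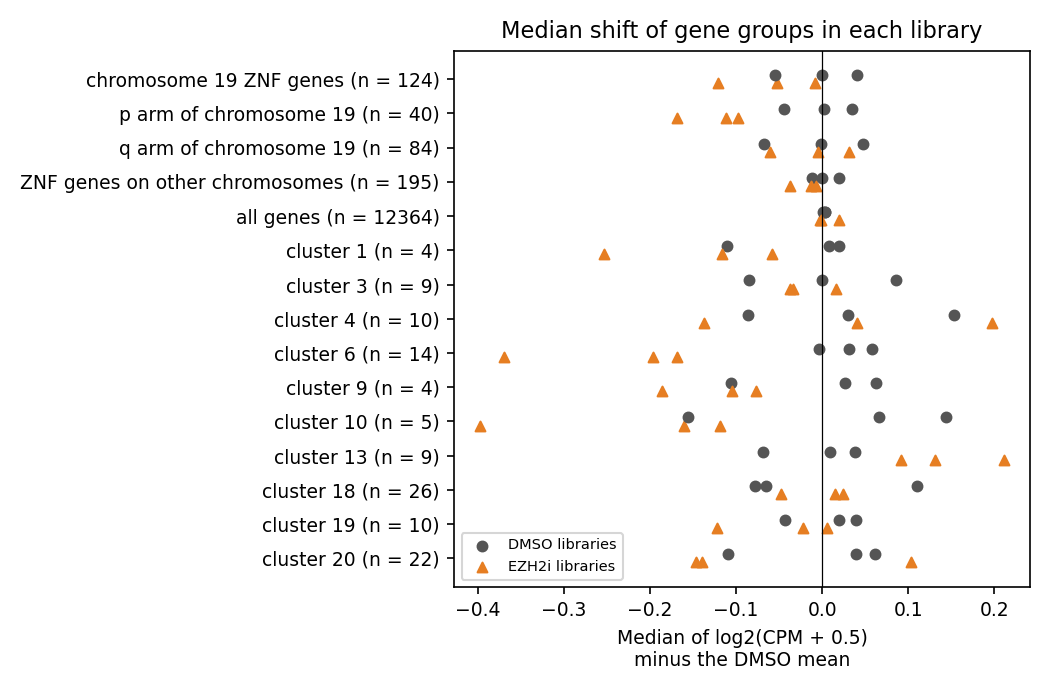
For each library, the median over the tested genes of a group of log2(CPM + 0.5) minus the gene's DMSO mean, in log2 units; grey circles are DMSO and orange triangles EZH2i. In cluster 6 all EZH2i medians lie at or below -0.17 and in cluster 13 all lie at or above 0.09, while those of all genes stay within 0.02 of 0.

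Cluster 13 (43.53 to 44.5 Mb on the q arm), also singled out after its values were seen and not tested, had mostly fold changes above 0. Of its 9 tested genes, 7 lay above 0 and 2 below, with a median of 0.12, the smallest of the 7 being ZNF428 at 0.00, and its library medians were -0.07, 0.04 and 0.01 in DMSO and 0.09, 0.21 and 0.13 in EZH2i. For 0 of the 9 did the groups of libraries lie apart (13.3% of all tested genes lay above and 11.2% below), and the summed levels overlapped (399, 367 and 407 CPM in DMSO, 391, 399 and 394 in EZH2i). With ZNF180, ZNF45 and ZNF225 as the highest, the log2 fold changes were 0.61, 0.45 and 0.25, and the adjusted p-values were 0.476, 0.424 and 0.767 (edgeR). ZNF180 reached the 1.32 CPM of the filter in all EZH2i libraries but not in all DMSO libraries. With at least 10 counts in every library, which leaves ZNF180 out, 6 of 8 genes lay above 0 and 2 below, with a median of 0.09. Over the same 9 genes the median was 0.07 without EZH2i replicate 2, and the split was 6 above and 3 below with DESeq2, RLE size factors, no filter, or without DMSO replicate 1, EZH2i replicate 1 or EZH2i replicate 2. Of its 23 genes, 12 lay wholly inside the lamina-associated domains (LIMe LADs) of the study's list.

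Only 15 of the 248 genes lay wholly inside such a domain, 12 in cluster 13 and 3 in cluster 6, and 3 of the 15 were tested, ZNF224, ZNF225 and ZNF226. Their summed level over the 15 was 12.6, 20.7 and 18.8 CPM in DMSO and 18.5, 15.1 and 18.1 in EZH2i, with overlap. None of the 248 genes lay wholly inside a region that the study lists as gaining lamina contact, of which 3 are on chromosome 19, and 1, ZNF536, overlapped one in part.

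The other clusters of at least 5 genes had medians between -0.32 and 0.05. In cluster 10, 4 of 5 tested genes lay below 0, with a median of -0.32 and library medians that overlapped between the groups (0.07, 0.14 and -0.16 in DMSO, -0.16, -0.40 and -0.12 in EZH2i). Leaving out DMSO replicate 2 moved the median of these 5 to -0.12, and leaving out EZH2i replicate 2 moved it to -0.19. In clusters 1 and 9 the 4 tested genes of each lay below 0, with medians of -0.21 and -0.15, and the libraries of the groups overlapped for each of them, as they did for all tested genes but the same 13.3% and 11.2%. Clusters 18, 19 and 20 had 13 of 26, 5 of 10 and 10 of 22 genes above 0, with medians of 0.01, 0.02 and -0.04. Clusters 3 and 4 had 4 of 9 and 6 of 10 above 0, with medians of -0.05 and 0.05.

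The highest fold changes among the 124 were those of ZNF699, ZNF180 and ZNF577, and none passed the test. ZNF699 stood at 1.56, 1.18 and 1.24 CPM in DMSO and 2.16, 2.39 and 2.43 in EZH2i, without overlap (log2 fold change 0.82, SE 0.37, adjusted p = 0.242, edgeR). Among the tested genes, it and ZNF776 were the only ones with every EZH2i library above every DMSO library, that is 2 of 124 against 13.3% of all tested genes. ZNF180 and ZNF577 overlapped between the groups (0.61 and 0.49, adjusted p = 0.476 and 0.415, edgeR). ZNF180 was at 0.25 without EZH2i replicate 2 and 1.01 without DMSO replicate 3, and ZNF577 at 0.18 without EZH2i replicate 1. ZNF699 and ZNF180 reached the 1.32 CPM of the filter in all EZH2i libraries but not in all DMSO libraries, as did 4 of the 124 in all, and 0 did so the other way, so both were tested through the group in which they are high.

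The lowest were those of ZNF628, ZNF799 and ZNF529. ZNF628 stood at 5.30, 4.74 and 7.81 CPM in DMSO and 2.70, 4.15 and 3.14 in EZH2i, without overlap (-0.84, SE 0.29, adjusted p = 0.112, edgeR). ZNF799 stood at 4.99, 3.32 and 2.83 CPM in DMSO and 2.43, 2.51 and 1.57 in EZH2i, again without overlap (-0.74, SE 0.34, adjusted p = 0.250, edgeR). In ZNF529 the groups overlapped, and EZH2i replicate 1 was the lowest library at 1.48 CPM (-0.71, adjusted p = 0.262, edgeR); without it the log2 fold change was -0.36. ZNF799 was at -0.49 without DMSO replicate 1. Of the 124 tested genes, 12 had every EZH2i library below every DMSO library, 7 on the p arm and 5 on the q arm, against 11.2% of all tested genes.

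Several members have known targets. ZNF91, which silences SVA retrotransposons, had 0 reads in all 6 libraries, and ZNF93, which silences LINE-1 elements, had 0, 5 and 1 reads in DMSO and 2, 0 and 2 in EZH2i. Neither had enough counted reads to be tested. ZNF274, which binds the 3′ ends of ZNF genes and brings SETDB1 to them, stood at 15.1, 16.0 and 15.2 CPM in DMSO and 12.3, 10.3 and 15.6 in EZH2i. One EZH2i library lay within the range of the DMSO libraries and the others below it (log2 fold change -0.28, 95% interval -0.65 to 0.09, adjusted p = 0.40, edgeR). The value ran from -0.45 without EZH2i replicate 3 to -0.15 without EZH2i replicate 2.

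ZNF417 and ZNF587, paralogs that repress endogenous retroviruses, had means in DMSO of 1.46 ± 0.778 and 26.2 ± 1.94 CPM and in EZH2i of 1.59 ± 0.605 and 24.0 ± 3.24 CPM (SD, n = 3). As paralogs, both can lose reads that map to more than 1 place. Their adjusted p-values were 0.940 and 0.703 (edgeR). ZNF473, a factor of histone pre-mRNA processing, was at 15.2 ± 1.40 and 13.4 ± 2.41 CPM, with overlap. Leaving out 1 library gave log2 fold changes from -0.23 to -0.05 for ZNF587 and from -0.27 to -0.04 for ZNF473. ZNF224, a repressor that works through KRAB and TRIM28, was at 5.23 ± 1.03 and 4.87 ± 0.994 CPM, with overlap. ZNF382, ZNF568 and ZNF536, the last a repressor of neuronal differentiation, were below the filter, with 3 to 7, 0 to 2 and 0 to 1 reads per library.

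ZNF541, a gene of meiotic germ cells, also lay at the low end. It had 5, 3 and 2 reads in DMSO and 18, 7 and 20 in EZH2i, that is 0.78, 0.355 and 0.226 CPM and 2.43, 0.88 and 2.85 CPM. Every EZH2i library lay above every DMSO library, as was so for ZNF528 in CPM. EZH2i replicate 2 lay close to the highest DMSO library. The gene missed the filter on low counts and had no test in the design used. Without that filter it was called higher, at a log2 fold change of 2.18 (SE 0.58, adjusted p = 0.00948, edgeR), and DESeq2 gave 2.21 with an adjusted p of 0.104.

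Without the filter, edgeR called 1 higher, ZNF541, and 3 lower of the 196 family genes with any read: ZNF708, ZNF557 and ZNF146. Over all 26226 genes with a read, 3.54% were then called, 2.21% higher and 1.33% lower. ZNF557, named here after its values were seen, stood at 16.7, 21.2 and 21.5 CPM in DMSO and 9.72, 13.95 and 17.0 in EZH2i. One EZH2i library lay above the lowest DMSO library, and with the filter its log2 fold change of -0.55 did not pass (adjusted p = 0.111). ZNF557 and ZNF146 were called with the filter when EZH2i replicate 3 was left out (adjusted p = 0.0483 and 0.0423, edgeR). Without EZH2i replicate 1 the log2 fold change of ZNF557 was -0.36 (adjusted p = 0.253, edgeR).

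The proteins through which KRAB domains act were expressed in every library. Of a list of 17 such genes, among them HP1 proteins, NuRD and HUSH subunits, 17 were tested and 0 were called, against 4.26% of all tested genes. At an unadjusted p under 0.05, which 10.9% of all tested genes passed as higher and 8.21% as lower, 1 of the 17 passed, ATF7IP, the partner of SETDB1 (log2 fold change -0.29, adjusted p = 0.241, edgeR). TRIM28 was at 208, 209 and 189 CPM in DMSO and 206, 204 and 236 in EZH2i, and SETDB1 at 70.8, 78.7 and 77.8 CPM in DMSO and 59.4, 65.0 and 71.1 in EZH2i. Both genes overlapped between the groups, with log2 fold changes of 0.10 (95% interval -0.12 to 0.31) and -0.22 (-0.45 to 0.01). TRIM28 was at 0.05 without DMSO replicate 3 and 0.02 without EZH2i replicate 3. The list's fold changes ran from -0.29 to 0.24, the latter in CHD3.

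The erythroid markers GATA1, TAL1, KLF1, HBG1, HBG2 and HBZ were expressed in all libraries, and HBE1 had 1 to 6 reads. HBZ went from 71.4 ± 5.63 to 158 ± 27.3 CPM (adjusted p = 6.14e-05) and HBG2 from 94.0 ± 11.6 to 139.9 ± 29.3 CPM (adjusted p = 0.0251, edgeR), both called higher, and GATA1 was higher in every EZH2i library than in any DMSO library without a call (adjusted p = 0.164). Among markers of other cells, CD3E, of T lymphocytes, had 0 to 8 reads per library. EPCAM stood at 77.3 ± 5.46 CPM in DMSO and 63.7 ± 2.72 in EZH2i, and COL1A1 was called higher, from 1.57 ± 0.506 to 6.02 ± 1.90 CPM (adjusted p = 0.00424, edgeR). The part of these markers' cells or of erythroid state in the results above was not tested.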

How the data were processed

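Three-prime mRNA libraries of 3 DMSO and 3 EZH2i cultures of 1 K562 clone were used. Reads were aligned to hg38 by the pipeline recommended for the kit (the submitters' processing notes name STAR 2.6.0c and HTSeq 0.11.2), and the authors deposited raw counts per gene for each library, not pooled or normalized. The strand setting of the counting is not given in the sources used here. A deposited table of the authors' own comparison, with fold changes and p-values, was not used.

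Rows that name no gene were left out; they held the rest beside the 63.6% to 67.9% of listed reads that fell on genes, lowest in EZH2i replicate 3 and at least 66.98% in the others. Genes were tested over the whole table with edgeR 4.0.16 in R 4.3.3 (TMM, filterByExpr with a minimum count of 10, glmQLFit and glmQLFTest, two-sided, no replicate block), with Benjamini-Hochberg adjustment over 12364 tested genes and a threshold of 0.05. The standard error is the size of the log2 fold change divided by the square root of F. DESeq2 1.42.0 was an alternative. With 3 against 3 an exact permutation test of 1 gene cannot go below 0.10.

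Positions and exons come from GENCODE 44 on GRCh38 (60401 of 60671 identifiers matched). Fingers and KRAB cores were searched in translations of the canonical GENCODE transcripts, in place of the RefSeq proteins first planned, and promoters are from RefSeq. Promoter identity is over 300 bases in a global alignment with free end gaps. LIMe LADs and regions gaining contact are lists of the study, used for membership only.

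The members, clusters and gene lists were chosen with earlier results of these data known. Named genes were those called, the 5 highest in DMSO per arm, the 3 highest and 3 lowest fold changes, genes with known roles, and TRIM28 and SETDB1. The script was tested on simulated data. No pairing by replicate number was seen, and none was modeled in the main fit. Intervals come from the edgeR fit and include the spread between cultures; the floor of 3 reads covers counting error only. Some marker genes are not reported here.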

Additional observations from a re-analysis of the deposited data

How the results depend on the processing

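The count of called chromosome 19 ZNF genes was 0 higher and 1 lower with DESeq2, RLE size factors, library totals only, a minimum of 10 counts in every library and related zinc finger families added. Without a filter on low counts it was 1 higher and 3 lower. Leaving out 1 library gave 0 to 1 higher and 0 to 2 lower, while over all genes it gave 180 to 412 higher and 20 to 124 lower: ZNF541 was called higher without EZH2i replicate 2 (adjusted p = 0.0162, edgeR), where it passed the filter through the EZH2i libraries in which it is high, and was not called without DMSO replicate 1, 2 or 3 (0.0717, 0.16 and 0.153). ZNF557 and ZNF146 were called lower without EZH2i replicate 3 (0.0483 and 0.0423). Samples with the same replicate number had deviations that correlated at -0.051 to -0.017. No pairing by number was seen in these correlations, which cannot exclude it. A fit with the replicate block left 0 higher and 1 lower. Over the whole table it called 450 genes higher and 149 lower, compared with 413 and 114 without the block.

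The median log2 fold change of the family was -0.091 to -0.0034 without 1 library. That of the p arm was -0.23 with DESeq2, -0.24 without the filter (both include genes with few reads) and -0.18 to -0.11 without 1 library. Without cluster 6 the p arm median was -0.046, an alternative chosen after seeing the data. The q arm median was -0.059 to 0.045 without 1 library. The difference in summed level was -55.3 CPM with library totals only. The median of all genes shifted by less than 0.1 under every scaling tried.

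Fold changes near 0 changed sign, and none of these passed the test. ZNF428 was at -0.017 with DESeq2, -0.0072 with RLE size factors and -0.023 without the filter, and ran from -0.052 to 0.032 without 1 library. Over the same left-out libraries ZNF121 ran from -0.17 to 0.059, ZNF480 from -0.12 to 0.025, ZNF224 from -0.25 to 0.038 and ZNF417 from -0.25 to 0.61. The cause was not tested. For genes at or under 3 reads per library no change could be measured; what part depth and unassigned reads have in this was not tested.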
